A study of Mus musculus with 12 samples.

Results

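Krüppel-like factors were followed in the liver of mice during the first hours of concanavalin A (ConA) hepatitis. The 10 genes were Klf2, Klf3, Klf4, Klf5, Klf6, Klf9, Klf10, Klf11, Klf13 and Klf15, and every probe set to which the platform annotation gives 1 of these symbols was taken, whatever its signal. There were 31 such probe sets among the 45037 that were tested, and their number per gene was 1 for Klf2, Klf10, Klf11 and Klf15, 2 for Klf4, 3 for Klf5 and Klf13, 5 for Klf6 and 7 for Klf3 and Klf9. The rule names genes and uses no signal of the arrays, but the genes were chosen with earlier results of these data known. Their counts beside the shares of all probe sets are therefore descriptive. Of the 31 probe sets, 25 were above the floor of the table (the 20th percentile of all signals, 3.04) on all arrays and 6 were at it on some array. Male Balb/C mice of 8 to 10 weeks were used, and whole liver was hybridised to Affymetrix mouse genome arrays, 1 per mouse. There were 3 arrays each of control mice (0 h) and of mice killed 1, 3 or 6 h after a tail vein injection of 20 mg/kg ConA, a lectin that activates T cells. The labels call the 0 h mice untreated, whereas the study's methods state that controls received PBS. All time points were set against the same 3 control arrays and none had a control of its own, so ConA, the injection and time of day cannot be told apart. The p-values measure the spread between these mice.

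Krüppel-like factors bind GC boxes and CACCC boxes in gene promoters through a run of zinc fingers at their C-terminal end, and they differ in the N-terminal part that recruits activators or repressors. In the liver, Klf15 promotes amino acid breakdown and gluconeogenesis in hepatocytes, Klf2 and Klf4 keep the endothelium quiescent and anticoagulant, and Klf6 is an early gene of injured tissue. Klf9, Klf13 and Klf15 respond to glucocorticoids, and Klf10 and Klf11 to TGF-beta.

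The liver label was checked by hepatocyte markers. The summed signal of 9 measured hepatocyte markers, albumin among them, was 65368 to 74037 on the 12 arrays. The array medians were 13.7 to 14.8 at 3 h and 15.6 to 20.4 in the other groups, and 21.2 to 23.1% of the probe sets were at the floor at 3 h against 17.4 to 20.4% elsewhere. As deposited, the median of all probe sets at 3 h lay -0.18 from the control on the log2 scale, at -0.27 against 1 h, and 0.24 lower than at 6 h, and after quantile normalization the first of these was -0.01. For the members, falls at 3 h and rises from 3 h to 6 h are therefore given with their results after quantile normalization where these change a call. For the gene lists, only the counts after quantile normalization are given in most cases, so a gene named there may have lost its call. The ratio of 3' to 5' signal, a sign of RNA integrity, was 0.875 to 1.21 for Gapdh, and for Actb it was 1.92 to 2.15 at 6 h and 2.13 to 2.70 in the other groups.

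The promoters of the genes that rose and of those that fell most are shown first, to show where the boxes that the family itself binds lie in them. They are the 250 bases before the RefSeq transcription start site (GRCm38.p6), written 5′ to 3′, with every match to CCNCNCCC on either strand, the common core of GC and CACCC boxes, in capitals. Of the 10 genes, 8 had a promoter in the table used here, and Klf5 and Klf10 did not.
Klf2, chr8:72318812-72319061, plus strand: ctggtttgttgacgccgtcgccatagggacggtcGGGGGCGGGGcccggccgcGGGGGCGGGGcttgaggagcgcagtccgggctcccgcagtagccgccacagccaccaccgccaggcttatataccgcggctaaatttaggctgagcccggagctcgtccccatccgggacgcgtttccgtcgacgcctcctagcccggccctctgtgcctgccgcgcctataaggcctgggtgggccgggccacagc
Klf6, chr13:5861239-5861488, plus strand: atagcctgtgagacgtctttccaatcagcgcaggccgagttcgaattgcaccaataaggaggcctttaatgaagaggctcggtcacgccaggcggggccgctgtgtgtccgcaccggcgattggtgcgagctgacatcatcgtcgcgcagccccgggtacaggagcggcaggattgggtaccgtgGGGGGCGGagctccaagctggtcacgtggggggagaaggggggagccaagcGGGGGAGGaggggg
Klf15, chr6:90462326-90462575, plus strand: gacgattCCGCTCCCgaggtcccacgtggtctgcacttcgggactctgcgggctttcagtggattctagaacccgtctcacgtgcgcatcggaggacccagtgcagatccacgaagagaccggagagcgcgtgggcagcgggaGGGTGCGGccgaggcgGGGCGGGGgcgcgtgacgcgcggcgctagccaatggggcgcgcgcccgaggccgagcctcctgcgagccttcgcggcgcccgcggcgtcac
Klf9, chr19:23140976-23141225, plus strand: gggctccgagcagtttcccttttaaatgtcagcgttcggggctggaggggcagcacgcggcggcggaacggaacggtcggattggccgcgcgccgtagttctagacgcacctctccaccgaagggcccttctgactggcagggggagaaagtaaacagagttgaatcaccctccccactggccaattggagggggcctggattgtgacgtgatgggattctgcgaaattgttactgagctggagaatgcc
Klf2 held 4 matches in 2 overlapping pairs, Klf6 held 2 and Klf15 held 3, whereas Klf9 held none. Across the 8 promoters, 7 held at least 1 match, against 45.9% of all 32851 promoter windows of this length. The GC content of the 8 was 59.6 to 78.4%, and the median of all windows was 52.4%. CACGTG, the E-box read by clock and bHLH factors, was found in 4 of the 8 (Klf4, Klf6, Klf11 and Klf15) against 6.02% of all windows, and in Klf15 it occurred at positions -228 and -172, counted from -1 at the base before the start site. The CRE core TGACG was found in 5 of the 8 (Klf2, Klf4, Klf9, Klf13 and Klf15) against 17.8% of all windows. A MEF2 site was found in 1, at -118 of Klf2, against 1.69% of all windows. The AP-1 site TGANTCA and the STAT site TTCNNNGAA were each found in 1 promoter, that of Klf9, against 6.75% and 7.02% of all windows, and the NF-kB site GGNNTTTCC was found in none, against 4.93%. Both strands were searched, the GC or CACCC matches overlap each other, and a match is a string of letters and not a measured binding site.

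Over the time course, the F test of limma called 17 of the 31 probe sets, against 28.1% of all probe sets tested. They belonged to 7 of the genes, and the brightest probe set passed for 6 of them (Klf2, Klf3, Klf6, Klf9, Klf10 and Klf15). At 1 h, limma's adjusted p called 1 probe set (Klf2) higher than the control and none lower, and 9 had an unadjusted p under 0.05. The share of all probe sets under that unadjusted p was not computed, so the count of 9 cannot be judged. Of all probe sets, 1.29% were called higher and 0.255% lower at 1 h. At 3 h, 5 were called higher (Klf2 and 4 of Klf6), against 3.77%, and 9 lower (3 of Klf3, 5 of Klf9 and Klf15), against 9.83%. After quantile normalization or scaling to 1 median this became 6 higher and 4 lower. At 6 h, 6 were called higher (Klf2 and all 5 of Klf6), against 12.0%, and Klf15 alone lower, against 8.37%, and the split was 6 and 3 after quantile normalization and 6 and 4 after scaling to 1 median. For the successive time points, the 31 probe sets had a median log2 change of 0.24, -0.73 and 0.19, beside 0.07, -0.18 and 0.04 over all probe sets.

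From 1 h to 3 h, the 5 probe sets of Klf6 rose, against 2.09% of all probe sets, and 13 probe sets fell, against 12.8%. The 13 were 6 of Klf9, 3 of Klf3 and 1 each of Klf4, Klf10, Klf13 and Klf15. The split was 6 and 6 after quantile normalization and 6 and 8 after scaling to 1 median. From 3 h to 6 h, 7 rose (3 of Klf3 and 1 each of Klf4, Klf10, Klf11 and Klf15), against 14.3%, and none fell, against 2.42%. After quantile normalization 5 rose, without Klf4 and Klf11. Among the 31, the count with an unadjusted p under 0.05 for this step was 16. It cannot be judged either, as the same share of all probe sets was not computed. The median log2 change of the 31 was -0.63 from 1 h to 3 h and 0.70 from 3 h to 6 h, beside -0.27 and 0.24 over all probe sets.

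**Figure D1:**
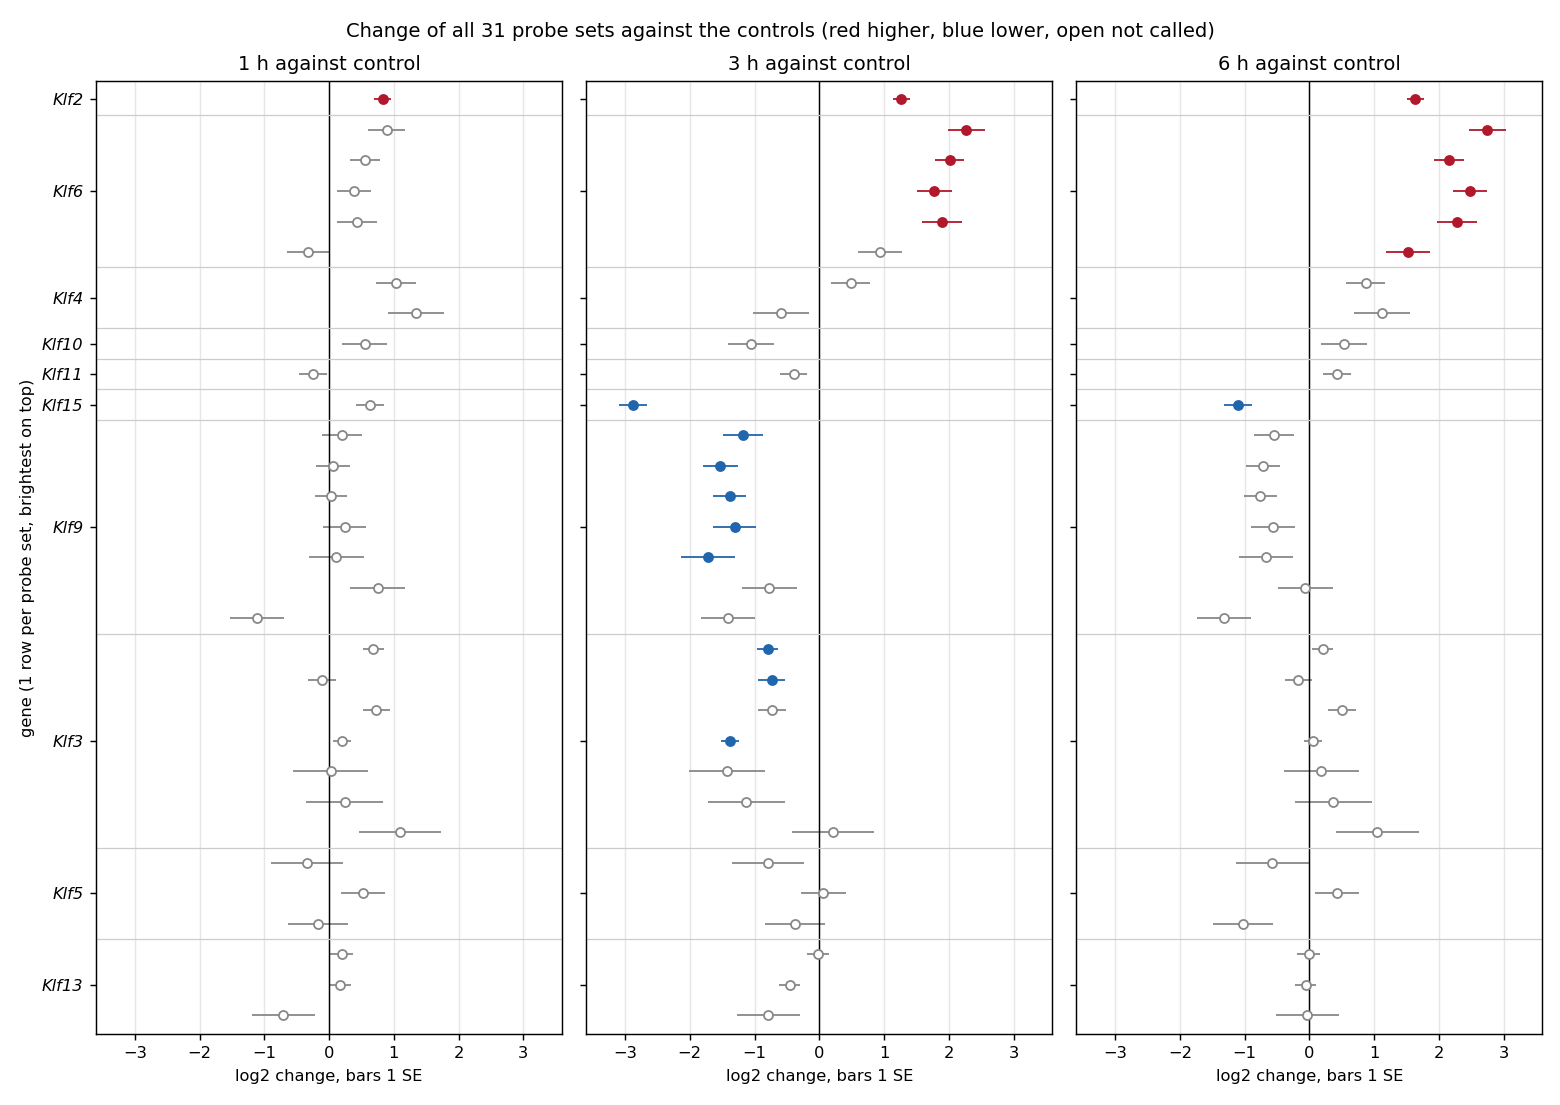
Log2 change of all 31 probe sets at 1, 3 and 6 h against the 3 control arrays (x axis; bars are 1 SE of the limma fit), 1 row per probe set and grouped by gene (y axis); red points were called higher, blue points lower and open points not called. Klf2 and Klf6 lie to the right at 3 h and 6 h. Klf15, all of Klf9 and most of Klf3 lie to the left at 3 h, and only Klf15 remains called lower at 6 h.

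Klf2, the flow-induced factor of quiescent endothelium that also restrains T cells and monocytes, was higher than the control at each time point. Its signal (probe set 1448890_at) was 64.8, 47.2 and 55.9 in the controls, 102, 101 and 91.5 after 1 h, 118, 132 and 153 after 3 h, and 166, 168 and 183 after 6 h. No array of a group overlapped with any array of another group, and the order as deposited was control, 1 h, 3 h, 6 h. The log2 change against the control was 0.82 (SE 0.13, adjusted p = 0.0182) at 1 h, 1.27 (SE 0.13, adjusted p = 0.000444) at 3 h and 1.64 (SE 0.13, adjusted p = 5.94e-05) at 6 h, the last a 3.11-fold higher signal. The steps from 1 h to 3 h (0.44, adjusted p = 0.0552) and from 3 h to 6 h (0.37, adjusted p = 0.0984) did not pass the threshold, although the former passed after quantile normalization (0.77, adjusted p = 0.019). The step from 3 h to 6 h was 0.058 (adjusted p = 0.907) after quantile normalization and -0.013 after scaling to 1 median, so the order of the last groups rests on the unscaled signals. The call at 1 h was lost in 7 of 21 alternatives, among them quantile normalization (0.69, adjusted p = 0.0835) and leaving out control array 3 (0.83, adjusted p = 0.0594), 1 h array 1 (0.79, adjusted p = 0.0661) or 1 h array 2 (0.80, adjusted p = 0.068).

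Klf6, a ubiquitous factor that is switched on early in wounded endothelium and in activated stellate cells, had the largest rise of the family. Its brightest probe set (1433508_at) read 46.2, 73.4 and 39.5 in the controls, 131, 94.0 and 68.8 after 1 h, 249, 206 and 293 after 3 h, and 309, 334 and 392 after 6 h. The 1 h arrays overlapped with the controls, and the 3 h and 6 h arrays lay above both groups. The log2 change was 0.89 (SE 0.28, adjusted p = 0.231) at 1 h, 2.27 (SE 0.28, adjusted p = 0.00107) at 3 h and 2.75 (SE 0.28, adjusted p = 0.000203) at 6 h, which is 4.82-fold and 6.71-fold for the later time points. The signal at 3 h was higher than at 1 h by 1.38 (SE 0.28, adjusted p = 0.014), and the step from 3 h to 6 h (0.48, adjusted p = 0.321) did not pass and was 0.21 after quantile normalization. The call of 3 h against 1 h was lost without 3 h array 3 (1.26, adjusted p = 0.0513) and in a fit of only these groups (1.38, adjusted p = 0.0546).

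All 5 probe sets of Klf6 were called at 6 h, with log2 changes of 1.52 to 2.75, and 4 of them at 3 h. The fifth, 1459718_x_at, was the dimmest and read 5.19, 7.67 and 6.58 in the controls, 9.61, 15.0 and 12.8 after 3 h and 14.6, 22.8 and 18.6 after 6 h. Its change at 3 h was 0.94 (adjusted p = 0.102) and at 6 h 1.52 (adjusted p = 0.0105). The ending x in its name marks probes that may match other transcripts too. From 1 h to 3 h, all 5 rose by 1.26 to 1.46 on the log2 scale.

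Klf4, the close relative of Klf2 that shares its endothelial targets and is better known as a reprogramming factor, gave low signals. Its brighter probe set (1417394_at) read 13.0, 8.55 and 10.5 in the controls, 22.9, 31.3 and 13.9 after 1 h, 10.9, 18.5 and 15.9 after 3 h, and 17.9, 20.5 and 19.3 after 6 h. The 1 h and 6 h arrays lay above the controls without overlap, but the log2 changes of 1.03 at 1 h (SE 0.30, adjusted p = 0.187) and 0.87 at 6 h (SE 0.30, adjusted p = 0.0782) did not pass. The 6 h change was called in 3 of 21 alternatives. These were the fit without 1 h array 3 (adjusted p = 0.0323), the brighter probe sets (adjusted p = 0.0302) and a fit of only these groups (adjusted p = 0.0328). The other probe set (1417395_at) read 1.27, 7.42 and 9.17 in the controls, 18.6, 12.3 and 14.7 after 1 h, 1.76, 3.00 and 6.60 after 3 h, and 14.6, 11.8 and 12.5 after 6 h. It was at the floor on 1 control array and on 2 arrays at 3 h, and its 1 h and 6 h arrays lay above all others. It was lower at 3 h than at 1 h by a fitted -1.93 (SE 0.43, adjusted p = 0.0192) and higher at 6 h than at 3 h by 1.71 (SE 0.43, adjusted p = 0.0259), and neither step was called after quantile normalization. Against the controls, the changes at 3 h were 0.48 and -0.59 for the brighter and the dimmer probe set, and neither passed.

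**Figure D2:**
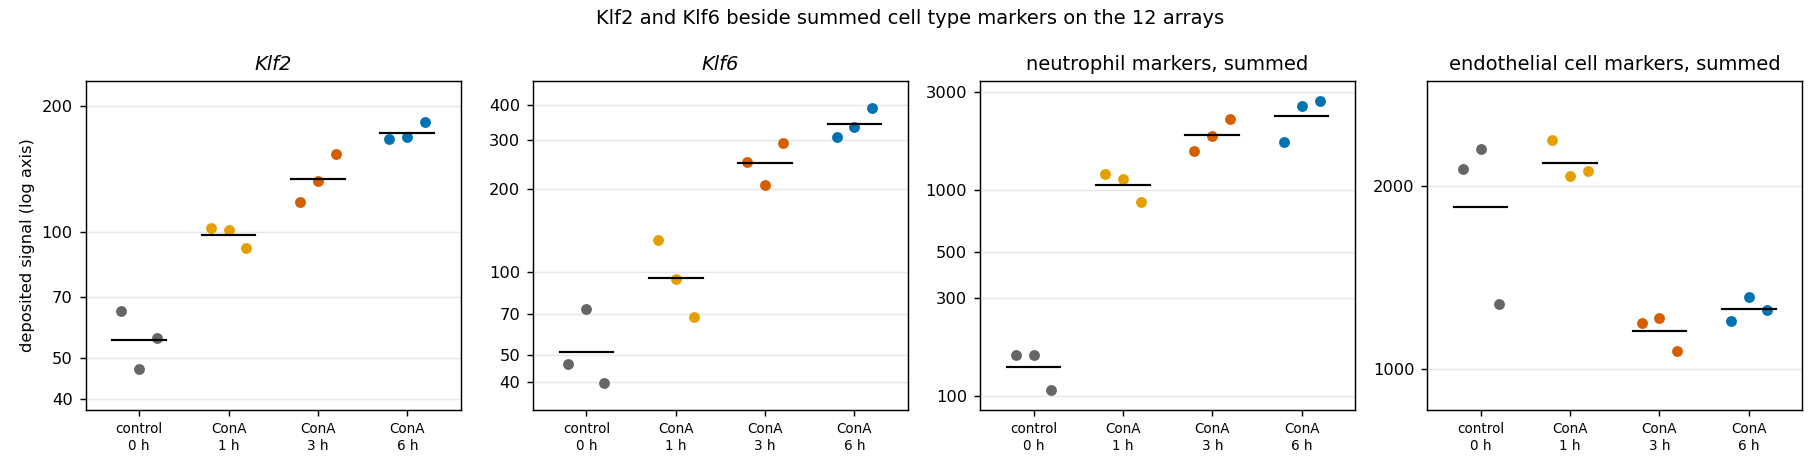
Signal on the 12 arrays (log y axis; each point is 1 array, lines are means of log2 values) of Klf2, Klf6, 9 summed neutrophil markers and 11 summed endothelial markers, by group. In these unscaled signals, Klf2, Klf6 and the neutrophil sum have their highest mean at 6 h, whereas the endothelial sum is lower at 3 h and 6 h than at 1 h.

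In a bulk sample, more cells of a type and more RNA per cell cannot be told apart, so markers of the cells that carry these factors are given beside them. In the gene-level fit, the brightest probe set stands for each of 18193 genes. Of 9 measured neutrophil markers, 4, 6 and 9 rose at the successive time points and none fell. Their summed signal was 107 to 158 in the controls, 871 to 1200.5 at 1 h, 1541 to 2217 at 3 h and 1703 to 2704 at 6 h. S100a8, a calcium-binding protein of neutrophils, had a log2 change of 4.32 at 1 h and 5.56 at 6 h. S100a8 and S100a9 weighed most in this sum of linear signals after ConA, with mean log2 signals of 8.90 and 8.65 at 1 h. Of 11 endothelial markers, none was called at 1 h, Kdr, Tek, Eng and Egfl7 fell at 3 h, and by 6 h 2 had risen and 4 had fallen. Their sum was 1277 to 2296 in the controls, 2073 to 2376 at 1 h, 1072 to 1212 at 3 h and 1197 to 1314 at 6 h. The T and NK cell sum was 63.5 to 81.8 in the controls and 104 to 159 at 6 h. The Kupffer cell and monocyte sum was 1979 to 2666 in the controls and 1237 to 1624 at 6 h. For stellate cells the sum was 3005 to 3748 and 2243 to 2519. The rises of Klf2 and Klf6 thus ran beside rises of the neutrophil sum and, at 6 h, the T and NK cell sum. The endothelial, Kupffer cell and stellate sums did not rise. The part of any of these cells in the rises of Klf2 and Klf6 was not tested. Control array 3 had the lowest endothelial sum (1277) and neutrophil sum (107) of the controls, and also their lowest array median (15.6). By the brightest probe sets, it had the lowest Klf6, Klf9, Klf10, Klf11, Klf13 and Klf15 of the controls, but their highest Klf3 and Klf5.

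Other cell types moved as well. Of 10 Kupffer cell and monocyte markers, none was called at 1 h, Clec4f, Cd163, Vsig4 and Csf1r fell at 3 h, and by 6 h 3 had risen and 4 had fallen. After quantile normalization, Marco was also higher at 3 h. Marco was at the floor on all 3 control arrays, so the size of its rise is not given. Of 8 T and NK cell markers, none was called at 1 h or 3 h, Cd3g and Cd2 rose at 6 h, Cd2 was also called higher at 3 h after quantile normalization (1.11, adjusted p = 0.0401), and Cd4 was at the floor on all arrays at 1 h and 3 h. Of 11 stellate cell markers, none was called at 1 h, Lrat and Pdgfrb fell at 3 h, and 6 had fallen by 6 h. Of 9 hepatocyte markers, none was called at 1 h, Hnf4a and Ass1 fell at 3 h, Hnf4a and Fga were above the control at 6 h, and the split at 3 h was 1 and 1 after quantile normalization.

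Of 11 endothelial genes known to respond to Klf2 or Klf4, 3, 4 and 7 rose at the successive time points and 0, 1 and 2 fell. The shares of all genes that rose were 1.50%, 5.15% and 15.4%, and the shares that fell were 0.148%, 14.7% and 12.7%. The same shares stand beside the counts of the cell type markers and of the other gene lists. The median log2 change of the 11 was 0.29, -0.10 and 0.82, beside 0.08, -0.21 and 0.02 over all genes. The genes that the factors are known to induce included Thbd, the anticoagulant thrombomodulin, at 0.91 (adjusted p = 0.012) at 3 h and 1.41 (adjusted p = 0.000698) at 6 h, and Nos3, the endothelial nitric oxide synthase, at -0.20 (not called) at 3 h and 0.82 (adjusted p = 0.00252) at 6 h. The adhesion molecules Vcam1 and Sele, which the factors are known to restrain, were above the control at each time point. The changes of Vcam1 were 2.38, 4.12 and 3.52 in order of time, and those of Sele 3.72, 4.07 and 3.24. From 3 h to 6 h, Vcam1 was called lower (-0.60, limma adjusted p = 0.0448). Adamts1, a secreted protease, had changes of 1.61, 2.35 and 2.04. Edn1, the endothelin gene, was at 2.14 (adjusted p = 0.0251) at 6 h, with 1 control array at the floor. The list holds both induced and restrained genes, so its counts and medians do not give the direction of a response to Klf2 or Klf4. Tek, the angiopoietin receptor, which is also among the endothelial markers above, was at -1.03 and -3.26 at the later time points. After quantile normalization the split at 6 h was 6 and 3, S1pr1 being lost and Ccn3 added.

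The kinases and factors that carry the flow signal to Klf2 and Klf4 (MEKK3, ERK5 and MEF2 and their relatives) held no gene called higher than in the controls. Of the 7 genes, none was called at 1 h, 3 fell at 3 h and 2 had fallen by 6 h. Mef2c fell by 1.71 (adjusted p = 0.00413), Mef2d by 1.15 (adjusted p = 0.00155) and the kinase gene Map3k2 by 0.60 (adjusted p = 0.00615) at 3 h. At 6 h, Map2k5 was at -0.64 (adjusted p = 0.0102) and Map3k2 at -0.40 (adjusted p = 0.0251). From 3 h to 6 h, Mapk7, the gene for ERK5, rose by 2.21 (adjusted p = 0.0389; 1 of 3 arrays was at the floor at 3 h), Mef2c by 1.13 (adjusted p = 0.024) and Mef2d by 1.01 (adjusted p = 0.00309). After quantile normalization, Mef2d alone rose in that step (0.63, adjusted p = 0.0411), whereas Map2k5 (-0.55, adjusted p = 0.00976) and Mef2a (-0.44, adjusted p = 0.0477) fell. The median of the 7 against the controls was 0.12, -0.60 and -0.14, beside 0.08, -0.21 and 0.02 over all genes.

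Klf15, which drives amino acid catabolism and the supply of substrate for gluconeogenesis during fasting, changed most of all 10 genes by the F test (F = 102, adjusted p = 4.31e-05). Its signal (1448181_at) was 917, 896 and 864 in the controls, 1285, 1338 and 1519.7 after 1 h, 111, 116 and 138 after 3 h, and 292, 583 and 419 after 6 h. The groups did not overlap, and the order from high to low was 1 h, control, 6 h and 3 h. The log2 change at 1 h was 0.63 (SE 0.22, adjusted p = 0.273), which did not pass although all 1 h arrays were above all controls. At 3 h it was -2.88 (SE 0.22, adjusted p = 6.16e-05), a 7.36-fold lower signal, and at 6 h -1.11 (SE 0.22, adjusted p = 0.00584), a 2.15-fold lower signal. From 1 h to 3 h the signal fell by 3.51 (SE 0.22, adjusted p = 5.86e-05), and from 3 h to 6 h it rose by 1.77 (SE 0.22, adjusted p = 0.0015). After quantile normalization the change at 3 h was -2.69 (adjusted p = 9.21e-05), and the 6 h call was lost when only the controls and 6 h arrays were fitted (-1.11, adjusted p = 0.0538).

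Klf9, a factor that glucocorticoids and thyroid hormone induce, was lower at 3 h in 5 of its 7 probe sets. The brightest (1428288_at) read 1402, 1964 and 1006 in the controls, 1475, 1671 and 1695 after 1 h, 654, 529 and 692 after 3 h, and 627, 1402 and 1009 after 6 h. The 3 h arrays lay below all control and all 1 h arrays, whereas the 6 h arrays spread over both ranges. The log2 change at 3 h was -1.18 (SE 0.31, adjusted p = 0.0353), and against 1 h it was -1.38 (SE 0.31, adjusted p = 0.0194). The change at 6 h was -0.55 (SE 0.31, adjusted p = 0.281). The call of 3 h against 1 h was lost after quantile normalization (-1.09, adjusted p = 0.0652), after scaling to 1 median (adjusted p = 0.0509), and without 1 h array 1 (adjusted p = 0.0512), 1 h array 2 (adjusted p = 0.0552) or 3 h array 2 (adjusted p = 0.0622). The 3 h call of this probe set was lost in 11 of 21 alternatives. Its adjusted p was 0.0575 after quantile normalization, and without 1 array it was 0.115 (control array 2), 0.107 (3 h array 2), 0.0907 (control array 1), 0.0749 (3 h array 1), 0.07 (3 h array 3), 0.0538 (1 h array 2), 0.0519 (6 h array 3) or 0.0503 (1 h array 3).

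The second brightest probe set of Klf9 (1456341_a_at) read 885, 1158 and 629 in the controls, 861, 935 and 911 after 1 h, 302, 273 and 325 after 3 h, and 357, 693 and 587 after 6 h. In this probe set the 3 h arrays lay below all others, those at 6 h included. Its change at 3 h was -1.53 (SE 0.27, adjusted p = 0.00585), and that of 1428289_at was -1.39 (SE 0.25, adjusted p = 0.00719). Over the 7 probe sets the change at 3 h ranged from -1.72 to -0.77, 6 were called lower at 3 h than at 1 h, and none was called at 6 h. After quantile normalization, 2 of the 7 were called lower at 3 h and 2 at 6 h, with changes of -1.49 to -0.53 over the 7 at 3 h.

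Klf3, a repressor that works through the corepressor CtBP, was lower at 3 h than in the controls, at 1 h and at 6 h. Its brightest probe set (1454666_at) read 451, 473 and 556 in the controls, 758, 749 and 859 after 1 h, 281, 236 and 341 after 3 h, and 489.8, 669 and 559 after 6 h. The 1 h arrays lay above and the 3 h arrays below the controls, and the 6 h arrays overlapped with them. The log2 change was 0.68 at 1 h (SE 0.16, adjusted p = 0.0931), -0.80 at 3 h (SE 0.16, adjusted p = 0.0123) and 0.21 at 6 h (SE 0.16, adjusted p = 0.449). From 1 h to 3 h it fell by 1.48 (SE 0.16, adjusted p = 0.000944), and from 3 h to 6 h it rose by 1.01 (SE 0.16, adjusted p = 0.00423). After quantile normalization the 3 h change was -0.61 (adjusted p = 0.069), whereas both steps between time points were still called. The 3 h call was also lost in a fit of only these groups (adjusted p = 0.0547), and the rise from 3 h to 6 h after scaling to 1 median (0.63, adjusted p = 0.0587).

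Among the 7 probe sets of Klf3, 1421604_a_at had an SE of 0.14 and read 114, 128 and 132 in the controls, 133, 139 and 155 after 1 h, 51.2, 38.2 and 55.4 after 3 h and 122, 137 and 129 after 6 h. It was lower at 3 h by -1.38 (SE 0.14, adjusted p = 0.000342) and at 6 h differed from the controls by 0.05 (adjusted p = 0.87). It is shown for its small spread and was thus picked after its values were seen. Over the 7 the change at 3 h ranged from -1.42 to 0.21, and the probe set at 0.21 (1458487_at) was near the floor, with 1 control array at it. As deposited, 3 of the 7 were called lower at 3 h. After quantile normalization only 1 was, the picked 1421604_a_at (-1.15, adjusted p = 0.00241).

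**Figure D3:**
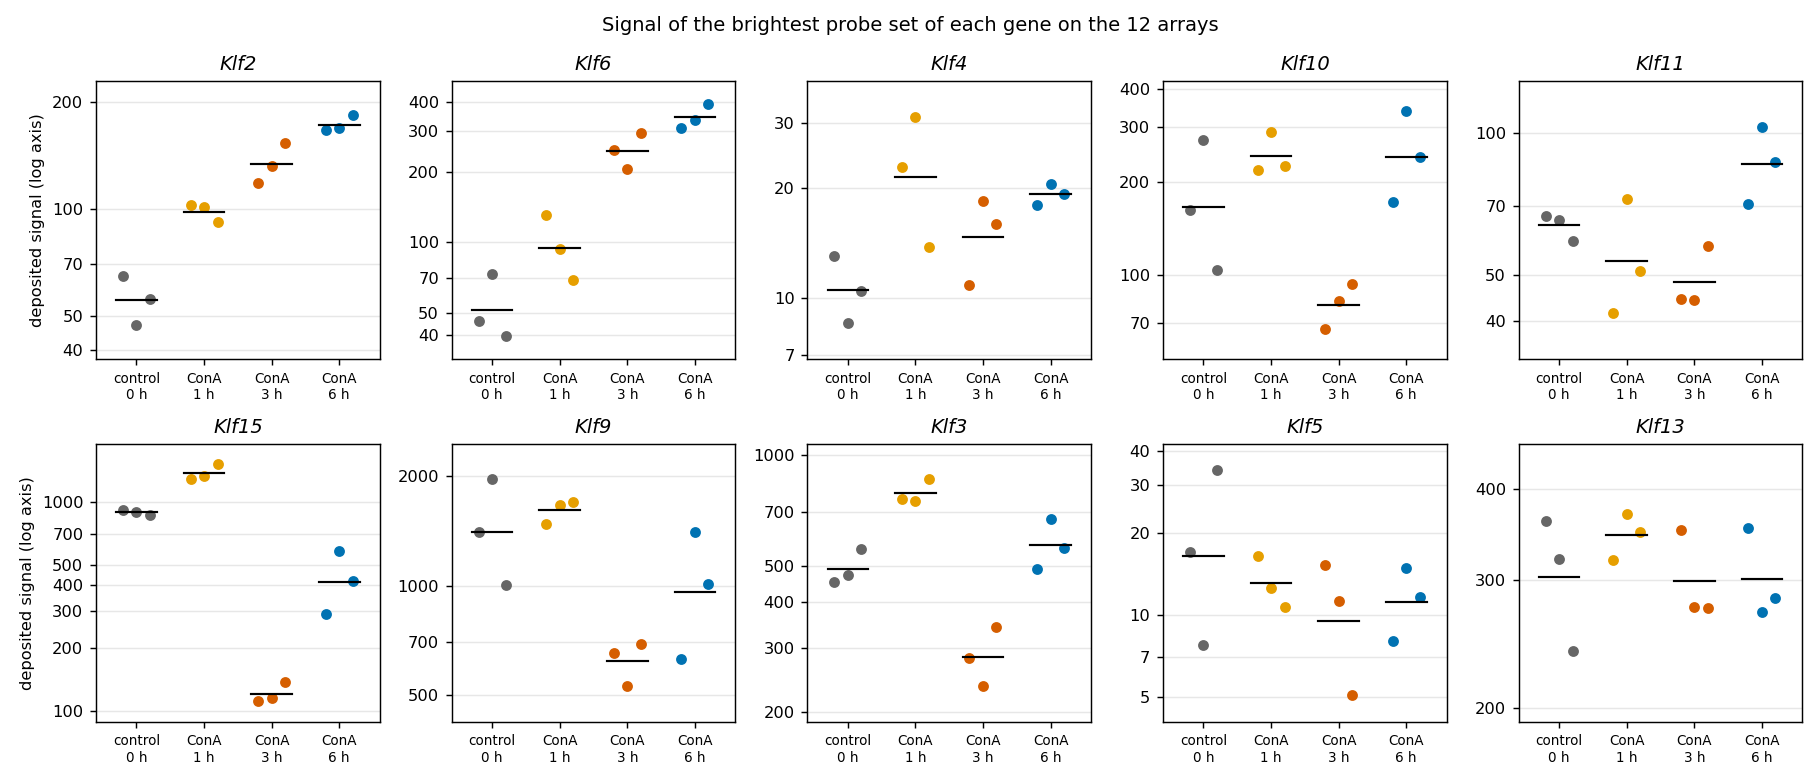
Deposited signal (log y axis) of the brightest probe set of each gene on the 12 arrays, by group (x axis); each point is 1 array and each line the mean of log2 values. Klf2 and Klf6 have their highest mean at 6 h in these unscaled signals, Klf15, Klf9, Klf3 and Klf10 have their lowest mean at 3 h, and Klf5 and Klf13 overlap between all groups.

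Klf10, a TGF-beta-inducible early gene that the clock also drives in liver, had the same low point at 3 h. Its signal (1416029_at) was 162, 272 and 104 in the controls, 219, 289 and 225 after 1 h, 66.9, 82.4 and 93.7 after 3 h, and 172, 339 and 241 after 6 h. The 3 h arrays lay below every other array. The control arrays spread widely, and the log2 change against them was 0.55 at 1 h (SE 0.35, adjusted p = 0.635), -1.05 at 3 h (SE 0.35, adjusted p = 0.0872) and 0.54 at 6 h (SE 0.35, adjusted p = 0.367). The signal fell by 1.59 from 1 h to 3 h (SE 0.35, adjusted p = 0.0188) and rose by 1.59 from 3 h to 6 h (SE 0.35, adjusted p = 0.0161). The fall from 1 h was lost after quantile normalization (-1.24, adjusted p = 0.0594) and without 1 h array 1 (-1.67, adjusted p = 0.0503), 1 h array 2 (-1.47, adjusted p = 0.0601) or 3 h array 1 (-1.46, adjusted p = 0.0568). The rise to 6 h was lost without 3 h array 1 (1.46, adjusted p = 0.0537) or 6 h array 2 (1.34, adjusted p = 0.0597), and the 3 h change was called without control array 3 (-1.39, adjusted p = 0.0296).

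Klf11, the relative of Klf10 that recruits the corepressor Sin3a, was called in 1 comparison. Its signal (1437241_at) was 66.8, 65.5 and 59.2 in the controls, 41.6, 72.5 and 51.1 after 1 h, 44.5, 44.3 and 57.7 after 3 h, and 70.6, 103 and 87.0 after 6 h. The 3 h arrays lay below and the 6 h arrays above the controls, but neither change passed (-0.40 with adjusted p = 0.286 and 0.43 with adjusted p = 0.221). The rise of 0.83 from 3 h to 6 h (SE 0.22, adjusted p = 0.0296) was lost in 7 of 21 alternatives. It was 0.45 (adjusted p = 0.273) after quantile normalization and 0.70 (adjusted p = 0.104) without 6 h array 2, 0.76 (adjusted p = 0.0877) without 3 h array 2, 0.77 (adjusted p = 0.0873) without 3 h array 1 and 0.82 (adjusted p = 0.0755) without 6 h array 3.

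Klf13, an activator of chemokine genes in T cells, and Klf5, a factor of proliferating epithelium, did not pass in any comparison with their brightest probe sets. Klf13 (1436316_at) read 362, 320.1 and 239 in the controls, 319.8, 369.7 and 349 after 1 h, 351, 276 and 275 after 3 h, and 354, 271 and 283 after 6 h, with overlap between all groups. Another probe set of Klf13 (1432543_a_at) was lower at 3 h than at 1 h by -0.63 (SE 0.16, adjusted p = 0.0331) but not after quantile normalization (-0.28, adjusted p = 0.484), and the third was at the floor on all 3 arrays at 3 h. Klf5 (1451021_a_at) read 17.0, 7.76 and 33.9 in the controls, 16.4, 12.6 and 10.7 after 1 h, 15.2, 11.2 and 5.07 after 3 h, and 8.00, 14.8 and 11.6 after 6 h. The SE of the changes of this Klf5 probe set was 0.56, and the dimmest Klf5 probe set was at the floor on all 3 arrays at 6 h.

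At 6 h, 1 array stood highest for many members. Array 2 of the 6 h group had the highest signal of its group for Klf3, Klf4, Klf5, Klf9, Klf10, Klf11 and Klf15 (brightest probe sets), and it also had the highest median of all 12 arrays, 20.4. Without it, 4 probe sets in place of 7 were called higher at 6 h than at 3 h.

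Of 12 measured genes of amino acid and glucose metabolism known to respond to Klf15, none was called at 1 h, 5 fell at 3 h, 6 were below the control at 6 h, and none rose. The median log2 change was 0.08, -0.41 and -0.50, beside 0.08, -0.21 and 0.02 over all genes. G6pc, the glucose-6-phosphatase of gluconeogenesis, was at -7.17 (SE 0.93, adjusted p = 0.000847) at 3 h, where 1 of 3 arrays was at the floor, and at -4.70 (SE 0.93, adjusted p = 0.0043) at 6 h. Ppargc1a, a coactivator of gluconeogenesis, was at -1.81 (adjusted p = 0.00211) and -3.27 (adjusted p = 3.8e-05), and Gpt, alanine aminotransferase, at -0.60 (adjusted p = 0.0365) and -1.15 (adjusted p = 0.000872). Pck1 was at -0.56 and -0.76, and Prodh, proline dehydrogenase, at -1.21 (adjusted p = 0.00252) at 6 h. Ass1, a urea cycle enzyme, was at -3.62 (adjusted p = 0.000477) at 3 h and at -0.03 (not called) at 6 h, and it is also among the hepatocyte markers above. Klf15 itself rose between 3 h and 6 h, while Ppargc1a fell by a further 1.47 (adjusted p = 0.00549) and Ass1 rose by 3.59 (adjusted p = 0.000896). After quantile normalization, 4 of the 12 were lower at 3 h and 9 at 6 h, with Asl, Otc and Cps1 added.

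**Figure D4:**
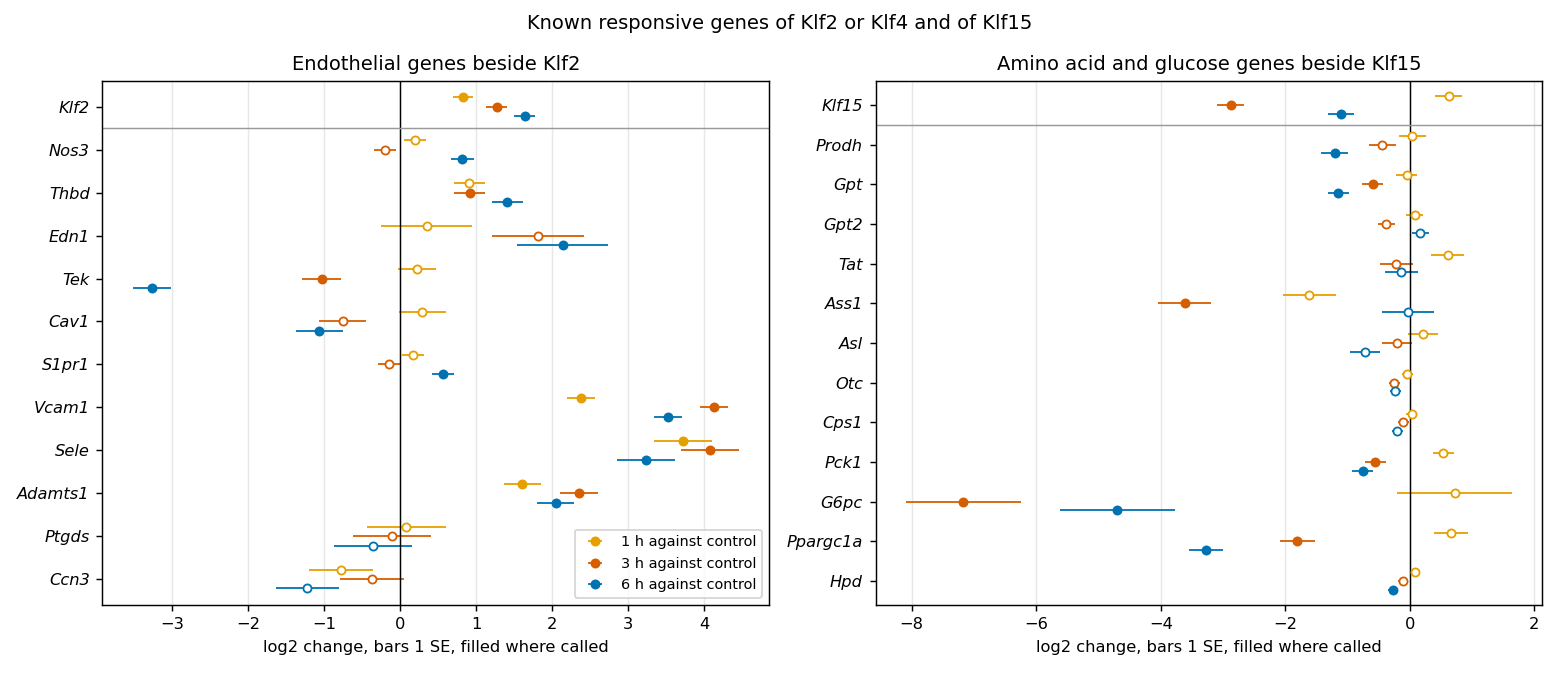
Log2 change at 1, 3 and 6 h against the controls (x axis; bars are 1 SE, filled points were called) of 11 endothelial genes known to respond to Klf2 or Klf4, with Klf2 on top, and of 12 amino acid and glucose genes known to respond to Klf15, with Klf15 on top. Vcam1, Sele and Adamts1 lie to the right at all 3 time points, and G6pc and Ppargc1a lie to the left at 3 h and 6 h.

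Of 9 glucocorticoid-response genes, Tsc22d3 (0.98) and Sgk1 (1.83) rose at 1 h, Tsc22d3 (-1.53) and Per1 (-0.75) fell at 3 h, and by 6 h 4 had risen and 2 had fallen. Tsc22d3, the leucine zipper gene GILZ, was thus above the control at 1 h and below it at 3 h and at 6 h (-0.88). At 6 h, Fkbp5, a receptor chaperone, was higher by 1.91 (adjusted p = 0.000245) and Zbtb16 by 2.29 (adjusted p = 0.0224), whereas Nr3c1, the glucocorticoid receptor, was at -0.85 (adjusted p = 0.00152). The medians were 0.98, -0.22 and 0.55, beside 0.08, -0.21 and 0.02 over all genes. After quantile normalization 1 rose at 1 h, 1 fell at 3 h, and by 6 h 2 had risen and 2 had fallen. The rises of Tsc22d3 and Sgk1 at 1 h were thus not both still called, nor were the falls of Tsc22d3 and Per1 at 3 h.

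Of 10 measured TGF-beta and SMAD genes, none was called at 1 h, 1 rose and 4 fell at 3 h, and by 6 h 2 had risen and 1 had fallen. At 3 h, Smad3 was at -1.16 (adjusted p = 0.00126), Smad2 at -0.67 (adjusted p = 0.00511), the inhibitory Smad7 at -1.36 (adjusted p = 0.0175), Tgfb3 at -1.53 (adjusted p = 0.0405) and the receptor gene Tgfbr1 at 0.34 (adjusted p = 0.0282). At 6 h, Skil, a repressor of SMAD targets, was at 1.54 (adjusted p = 0.000292) and Tgfbr2 at -1.41 (adjusted p = 0.0045). After quantile normalization 3 rose and 3 fell at 3 h, and by 6 h 2 had risen and 2 had fallen. The medians were -0.0027, -0.42 and 0.05, beside 0.08, -0.21 and 0.02 over all genes.

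Of 14 genes for KLF corepressors, coactivators and ubiquitin ligases, none was called at 1 h, 3 fell at 3 h, and by 6 h 3 had risen and 2 had fallen. Ctbp1, the partner of Klf3, was at -0.39 (adjusted p = 0.0298) at 3 h. The acetyltransferase gene Kat2b was at -0.50 at 3 h and -0.87 (adjusted p = 0.000775) at 6 h, and Wwp1, a ubiquitin ligase of Klf2 and Klf5, at -0.68 and -0.87 (adjusted p = 0.00231). At 6 h, Hdac1 (0.41), Hdac2 (0.43) and Crebbp (0.47) were higher. After quantile normalization 1 rose and 1 fell at 3 h, and 3 rose and 3 fell at 6 h. The falls of Ctbp1, Kat2b and Wwp1 at 3 h were thus not all still called. The medians were 0.16, -0.26 and 0.08.

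Of 13 measured further members of the Sp and KLF family, none was called at 1 h, Klf16 (-1.53), Sp4 (-1.52) and Sp5 (-1.95) fell at 3 h, and by 6 h Sp1 had risen (0.70) and Klf12 (-1.85) and Sp4 (-1.40) had fallen. Sp5 was at the floor on 2 of the 3 arrays at 3 h. After quantile normalization Klf7 was also higher at 3 h. The medians were 0.18, -0.02 and -0.03. Thbd, Nos3, Pck1, Tgfbr1 at 3 h, Hdac1, Adamts1 at 6 h, Asl, Otc, Cps1, Ccn3, S1pr1, Mef2a, Cd2 at 3 h and Klf7 were named here after their values were seen.

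Over the 12 arrays, Pearson's r of log2 signals was 0.92 between Klf2 and Klf6, 0.91 between Klf15 and Klf9, 0.89 between Klf15 and Klf3, 0.74 between Klf15 and Klf10, and -0.66 between Klf15 and Klf6. These values describe points that share their group and array. Of all genes, those most like Klf15 were Arhgap12 (r = 0.978), Kcnk5 (0.971), Jmy (0.97), 3830406C13Rik (0.967) and Rreb1 (0.966), and their log2 changes at 3 h were -0.99, -4.20, -1.07, -0.68 and -2.31. Those most like Klf2 were Eif1a (0.975), Srgn (0.975), Plaur (0.97), Hk2 (0.969) and Stat2 (0.969), with changes at 6 h of 1.90, 2.73, 4.34, 3.10 and 1.30.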

How the data were processed

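The 12 arrays carried whole liver RNA, 3 mice per group. The deposited intensities are linear signals. The labels' processing notes name MAS5 version 5.0, the study's methods name RMA, and the distributions differed between arrays, so the intensities as the authors deposited them were read as MAS5 signals and not rescaled. The table's 20th percentile (3.04) served as a floor, log2 was taken, and 64 manufacturer control probe sets of 45101 were left out. Symbols came from the platform annotation, updated by Entrez ID. Of the 45037 probe sets, 34945 had 1 symbol, 932 several and 9160 none. All 4 group means were estimated together by limma 3.58.1 (R 4.3.3), with Benjamini-Hochberg adjustment over all probe sets and a threshold of 0.05, and the step was tested on simulated data. The study's methods name a random variance model, in whose place the moderated F test was used. The brightest probe set stands for a gene. In each list and comparison, at most 4 genes were named, the largest changes past the threshold with no overlap between arrays. The members and lists were chosen with earlier results of these data known. The number of arrays limits the precision. Where a probe set lies in its transcript, and protein sequences, were not analysed here. Alternatives were quantile normalization, scaling to 1 median, log2(signal + 1) without a floor, a floor at the 40th percentile, the brighter probe sets, an intensity trend, a fit of only the groups compared, a replicate block, 1 probe set per gene, a 2-fold change beside the test, plain analysis of variance, and leaving out each array.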

Additional observations from a re-analysis of the deposited data

Results flagged for a closer look

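The change against the same controls differed between time points for several genes by limma's direct comparison of the time points. Between 1 h and 3 h, the log2 difference was -3.51 for Klf15, -1.59 for Klf10, -1.48 for Klf3, -1.38 for Klf9 and 1.38 for Klf6. Between 3 h and 6 h, it was 1.77 for Klf15, 1.59 for Klf10, 1.01 for Klf3 and 0.83 for Klf11. After quantile normalization, the calls of Klf9 and Klf10 between 1 h and 3 h and of Klf11 between 3 h and 6 h were lost. Groups of 3 arrays were too small to look for single outlying arrays.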

How the results depend on the processing

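For the change of each gene in each comparison (50 results), 988 of 1045 values kept their side of the threshold, 43 lost the call and 14 gained it, and 36 results kept their side throughout. No called change turned its direction, but 28 values of 11 results that were called neither as deposited nor under the alternative had the opposite sign. The single probe set called at 1 h was not called (0) after quantile normalization, after scaling to 1 median, without a floor, in a fit of only the groups compared or at a change of at least 2-fold, and there were 2 among the brighter probe sets (23 members tested). Leaving out 1 array gave 0 to 1 at 1 h (0 without control array 3, 1 h array 1 or 1 h array 2), 10 to 16 at 3 h, 7 to 9 at 6 h, 12 to 19 for 3 h against 1 h, 4 to 10 for 6 h against 3 h (4 without 6 h array 2) and 12 to 20 by the F test. At 3 h, 9 were called in a fit of only the groups compared. With 1 probe set per gene (10 tested), 5 were called at 3 h, 3 at 6 h, 6 for 3 h against 1 h, 4 for 6 h against 3 h and 7 by the F test, as fewer were tested. Scaling to 1 median gave 4 for 6 h against 3 h. The cause of the other shifts was not tested. Replicate numbers showed no pairing of the arrays in the residuals. Those of same-numbered arrays correlated at -0.011 to 0.038 (18 pairs) and of others at -0.036 to 0.029 (36 pairs). Such correlations cannot exclude that same-numbered arrays were handled together. With a replicate block, 1, 14, 7, 17 and 8 probe sets were called in the 5 comparisons and 17 by the F test. Plain analysis of variance gave 17.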
